A study of Mus musculus with 6 samples.

Results

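The Ifi200 genes encode a family of interferon-inducible proteins that bind DNA, and they lie side by side with Aim2 in a single cluster on mouse chromosome 1. Of the 57010 genes in the deposited table, 9 were taken by name: Ifi203, Ifi204, Ifi205, Ifi207, Ifi209, Ifi211, Ifi213, Mndal and Aim2. Each name matched 1 row, and all 9 genes were above the filter on low values used for testing, a mean of at least 1 FPKM (fragments mapped to a gene, corrected for its length and for the depth of the library) over the 6 libraries.

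Skin was taken at the end of a diabetic ulcer experiment from 6 mice labelled WT, 1 library per mouse. In 3 mice the gel put on the skin held CST, cortistatin by the title of the series, which is a peptide akin to somatostatin. The gel of the other 3 held Yoda1, a synthetic opener of the mechanosensitive calcium channel Piezo1. The labels give no age, sex or dose and do not say how diabetes was induced. Skin without either drug was not analysed here. Every comparison therefore sets CST against Yoda1. The depth behind the FPKM values was 24115479 to 29042514 reads in the CST libraries and 23791352 to 29620526 reads in the Yoda1 libraries.

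The labels name keratinocytes and also whole skin. The 8 keratinocyte markers looked at (among them Krt5, Krt14 and Krt10) summed to 14620 to 19951 FPKM in CST and 11098 to 26510 FPKM in Yoda1 libraries. Markers of fibroblasts, endothelium, skeletal muscle, macrophages and neutrophils were also present in every library, so the samples are described here as skin. B cell markers were close to 0, with 5 genes summing to 0.855 to 1.39 FPKM in CST and 0.661 to 1.59 FPKM in Yoda1 libraries. In such mixed tissue, fewer cells of a type and less RNA per cell cannot be told apart. CST mouse 1 and Yoda1 mouse 3 stood apart from the rest: mitochondrially encoded transcripts took 6.72% and 7.61% of their FPKM sums, against 3.25% to 3.81% in the other 4 libraries.

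Proteins of this family carry a HIN domain that binds DNA, and most also carry a pyrin domain through which they meet other proteins. Aim2 binds DNA that has strayed into the cytosol and assembles an inflammasome with the adaptor ASC (gene Pycard) and caspase-1. Ifi204 is regarded as the nearest mouse counterpart in function of human IFI16, and in mouse cells it has been linked to STING, the adaptor that switches on type I interferon. Interferon in turn raises transcription of these genes through interferon response elements in their promoters, and macrophages are a well known site of their expression.

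On GRCm38, with positions from GENCODE M21 matched on the Ensembl identifier, the 9 genes span 681 kb of chromosome 1, and all are annotated as protein coding. Aim2 (ENSMUSG00000037860, chr1:173350879-173466040) lies at one end. It is followed by Ifi213 (chr1:173566283-173599274), Ifi209 (chr1:173630917-173647928), Ifi207 (chr1:173723427-173741747) and Ifi204 (ENSMUSG00000073489, chr1:173747293-173766943). Next come Mndal (ENSMUSG00000090272, chr1:173849126-173942491), Ifi211 (chr1:173896345-173913046), Ifi203 (ENSMUSG00000039997, chr1:173920407-173942672) and, at the other end, Ifi205 (chr1:174011998-174031810). Aim2 and Ifi209 are on the plus strand and the other 7 genes on the minus strand. The GENCODE span of Mndal overlaps those of Ifi203 and Ifi211 on the same strand.

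RefSeq promoters (GRCm38.p6, from 250 bases before a start site to 50 after it) were at hand for 8 of the 9 genes, Ifi204 being the gene without one. They were searched on both strands for the core of an interferon response element, taken as GAAA, then 2 bases of any kind, then GAAA. The core was found in promoters of 6 of the 8 genes, while 3.99% of the 27025 genes with a RefSeq promoter hold it (3.44% of 32851 promoters of that length). The 40-base windows below are shown because the same core stands in the sense orientation in all 6, with the core in capitals and every other base in lower case.
Ifi203 (chr1:173942503-173942542, minus strand): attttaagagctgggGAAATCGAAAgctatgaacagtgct
Mndal (chr1:173880199-173880238, minus strand): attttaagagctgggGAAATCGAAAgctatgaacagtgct
Ifi213 (chr1:173599321-173599360, minus strand): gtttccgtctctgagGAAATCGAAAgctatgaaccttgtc
Ifi207 (chr1:173741826-173741865, minus strand): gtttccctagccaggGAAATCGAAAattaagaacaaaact
Ifi211 (chr1:173913059-173913098, minus strand): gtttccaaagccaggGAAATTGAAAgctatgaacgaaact
Ifi205 (chr1:174031865-174031904, minus strand): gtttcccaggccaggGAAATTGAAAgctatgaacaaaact

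The windows of Ifi203 and Mndal were identical over all 40 bases, and their promoters shared an unbroken run of 139 bases. The other 4 windows differed from that of Mndal at 11 to 13 bases, of which 1 lay inside the core in Ifi211 and in Ifi205. The core began 35 to 41 bases before the start site in Ifi203, Mndal, Ifi207 and Ifi211, 73 bases before it in Ifi213 and 134 bases before it in Ifi205. Ifi205 also held a match on the opposite strand. Both Ifi203 and Mndal have a further RefSeq start site, where the Ifi203 promoter held no match and the Mndal promoter held 1 on the opposite strand. The RefSeq start sites of Mndal lie inside its GENCODE span. The GENCODE start of Mndal falls inside the Ifi203 promoter that held the match.

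The promoters of Ifi209 and Aim2 held no match to the core. In Ifi209 a stretch in the same surroundings, 79 bases before the start site, missed it by G1T (positions counted from 1 at the first base of the core, here in capitals).
Ifi209 (chr1:173630765-173630804, plus strand): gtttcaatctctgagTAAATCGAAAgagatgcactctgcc
A site that misses the core by 1 base is common, and 34.0% of all promoters held one, so this match is a description of the letters only. Ifi209 held 4 such sites in all, and Aim2 held 1, on the opposite strand (A3C). The Aim2 promoter (chr1:173420354-173420653, plus strand) lies inside the GENCODE span of Aim2, and the GENCODE start was not searched. This promoter is shown whole, all in lower case because it holds no exact match to the core.
Aim2: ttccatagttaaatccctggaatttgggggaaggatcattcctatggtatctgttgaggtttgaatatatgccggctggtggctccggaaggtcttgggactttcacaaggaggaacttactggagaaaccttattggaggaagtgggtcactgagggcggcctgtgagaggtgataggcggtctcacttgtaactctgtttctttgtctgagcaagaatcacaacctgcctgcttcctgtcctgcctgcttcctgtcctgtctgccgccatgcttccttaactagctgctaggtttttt
A STAT site core, TTCNNNGAA, occurred in promoters of 9.55% of those 27025 genes and of 0 of the 8 genes. That no match was found says only that these letters are not in these windows.

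In levels per length, Ifi204 (mean 69.9 FPKM over the 6 libraries) and Mndal (67.7 FPKM) were the most abundant of the 9 genes. Their order was not settled, since Ifi204 was the higher in 3 of the 6 libraries. Ifi205 (37.3 FPKM), Ifi203 (37.0 FPKM) and Ifi211 (33.0 FPKM) followed at like levels, with Ifi205 above Ifi203 in 3 of 6 libraries and Ifi203 above Ifi211 in 4 of 6. Mndal was above Ifi205 in all 6 libraries, and Ifi211 was above Ifi207 in all 6. Ifi207 (22.4 FPKM) and Ifi209 (22.2 FPKM) exchanged places in 3 of 6 libraries. Aim2 (11.2 FPKM) and Ifi213 (7.07 FPKM) were lowest, Aim2 being the higher in 5 of 6. Behind these levels stood 179 to 4720 recovered reads per gene and library, the fewest in Ifi213. The order depends on the lengths recovered with the reads, which ran from 1014 bases for Mndal to 3284 bases for Ifi207. In CST mouse 1, for example, Mndal had 1389 reads and Ifi205, with 2444 bases, had 2877.

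**Figure D1:**
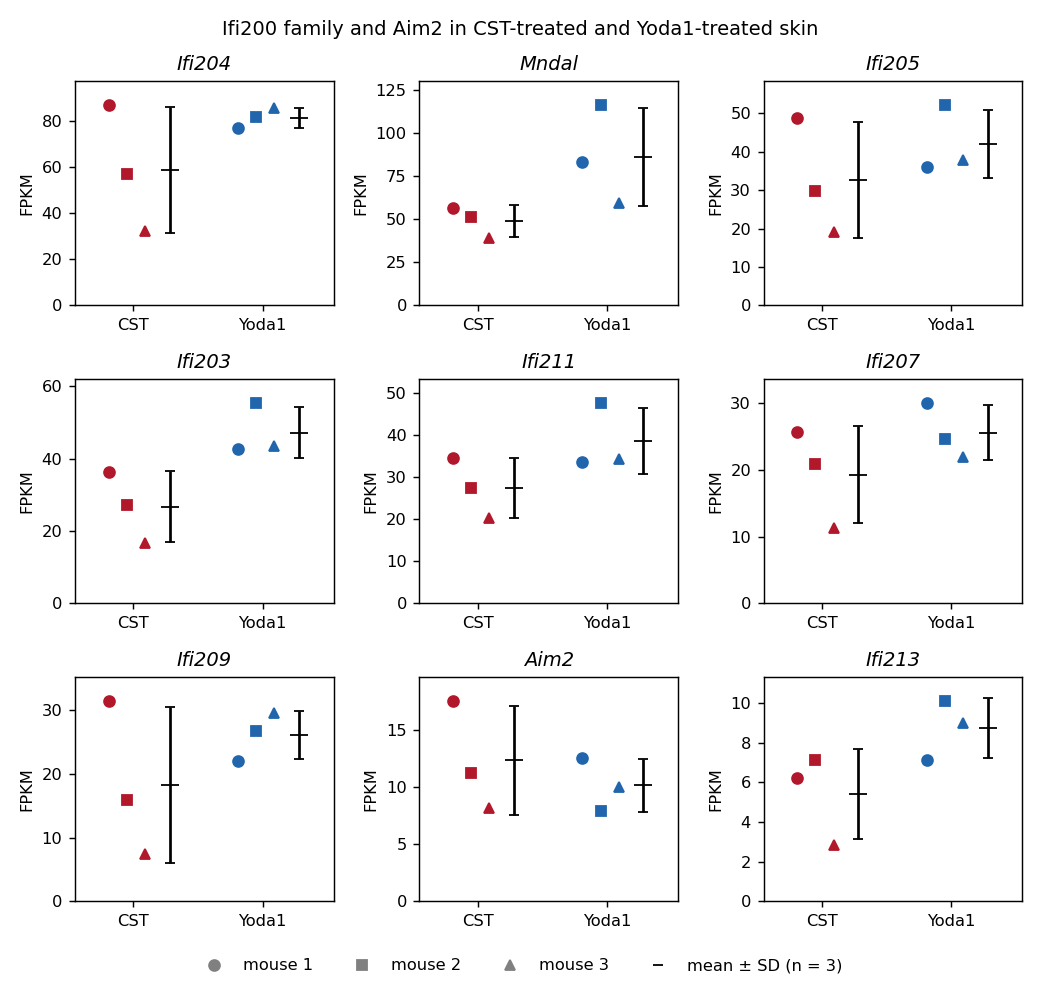
FPKM of each of the 9 genes (y axis, from 0) in CST and Yoda1 libraries (x axis), with a symbol for each mouse and the mean ± SD of the 3 mice beside it in black. In 8 of the 9 panels the lowest point is CST mouse 3; all CST points lie below all Yoda1 points in the panels of Ifi203 and Mndal only.

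Set against Yoda1 skin, CST skin had lower mean FPKM for 8 of the 9 genes, with Aim2 the exception. No gene passed the test. In limma over 14588 genes with Benjamini-Hochberg adjustment, 0 of the 9 genes and 0 genes in all (0% of those tested) passed the adjusted threshold of 0.05. Before adjustment 584 genes had a p under 0.05. With limma-voom, run on the recovered reads, 0 genes passed and 585 had an unadjusted p under 0.05. The median log2 difference, CST minus Yoda1, was -0.57 over the 9 genes and -0.01 over all genes tested. The 3 values of CST lay below the 3 values of Yoda1 in 2 of the 9 genes, against 2.08% of all genes tested, and it was the other way round in 0 of the 9 genes, against 4.52% of all genes tested.

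Ifi203 measured 36.4, 27.1 and 16.8 FPKM in CST mice 1 to 3, against 42.7, 55.4 and 43.6 FPKM in Yoda1 mice 1 to 3. All CST values of Ifi203 were below all Yoda1 values. The means were 26.8 ± 9.80 FPKM in CST and 47.2 ± 7.07 FPKM in Yoda1 skin (SD, n = 3 each), a log2 difference of -0.85 (95% interval -1.54 to -0.17, limma unadjusted p = 0.0211, adjusted p = 0.843). Mndal, whose name stands for myeloid nuclear differentiation antigen like, showed the same order. It measured 56.8, 51.1 and 39.2 FPKM in CST mice, against 83.2, 116 and 59.6 FPKM in Yoda1 mice. The groups did not overlap, but CST mouse 1 and Yoda1 mouse 3 were only 2.80 FPKM apart. Its log2 difference was -0.77 (95% interval -1.43 to -0.11, limma unadjusted p = 0.0281, adjusted p = 0.947). Ifi203 and Mndal were the 2 of the 9 genes with an unadjusted p under 0.05 in the lower direction, where 0.788% of all genes tested had one.

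Ifi204, the gene linked to STING, had 86.7, 56.7 and 32.4 FPKM in CST mice 1 to 3, against 76.8, 81.4 and 85.3 FPKM in Yoda1 mice. The Yoda1 mice lay close together, whereas the CST mice ran from the highest value of all 6 libraries, in mouse 1, to the lowest, in mouse 3. The log2 difference of -0.57 was within this spread (95% interval -1.36 to 0.22, limma adjusted p = 1.000). Ifi209, also known as Pyhin1, had the same shape, with 31.5, 16.003 and 7.41 FPKM in CST mice against 22.1, 26.7 and 29.7 FPKM in Yoda1 mice. CST mouse 1 was again the highest of the 6 libraries and CST mouse 3 the lowest, 4.25-fold apart, which was the widest range of the 9 genes.

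Ifi205 is known in mouse macrophages for its effect on expression of the inflammasome adaptor ASC. It had 48.8, 29.9 and 19.1 FPKM in CST mice and 35.9, 52.1 and 37.9 FPKM in Yoda1 mice, and the groups overlapped through CST mouse 1. Ifi211 had 34.5, 27.4 and 20.3 FPKM in CST mice, against 33.7, 47.7 and 34.5 FPKM in Yoda1 mice. CST mouse 1 lay within the range of the Yoda1 mice for Ifi211, and the other CST mice lay below it. Ifi207 had 25.6, 20.9 and 11.3 FPKM in CST mice, against 30.0, 24.7 and 22.0 FPKM in Yoda1 mice. Ifi213, the least abundant, had 6.21, 7.15 and 2.84 FPKM in CST mice, against 7.14, 10.1 and 9.003 FPKM in Yoda1 mice, and there CST mouse 2 in place of mouse 1 reached the range of the Yoda1 mice. The log2 differences of these 4 genes were between -0.43 and -0.67, each with a 95% interval that included 0.

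Aim2 did not share the direction. It had 17.5, 11.3 and 8.18 FPKM in CST mice, against 12.5, 7.90 and 10.02 FPKM in Yoda1 mice, and the groups overlapped widely. Its log2 difference was 0.22 (95% interval -0.49 to 0.93, limma unadjusted p = 0.498, adjusted p = 1.000), and it turned to -0.050 without CST mouse 1, to -0.047 without CST mouse 1 and Yoda1 mouse 3, and to -0.15 with library weights. The lowest Aim2 value was in Yoda1 mouse 2, the library in which 5 of the other 8 genes had their highest value. Aim2 therefore made up more of the summed FPKM of the 9 genes in each CST library (5.09%, 4.55% and 5.19%) than in each Yoda1 library (3.63%, 1.87% and 3.02%). The ratio of Aim2 to Ifi204 was likewise 0.202, 0.199 and 0.253 in CST mice and 0.163, 0.0970 and 0.118 in Yoda1 mice. These shares and ratios are descriptions, with no test, and were looked at with the values of the single genes in view.

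**Figure D2:**
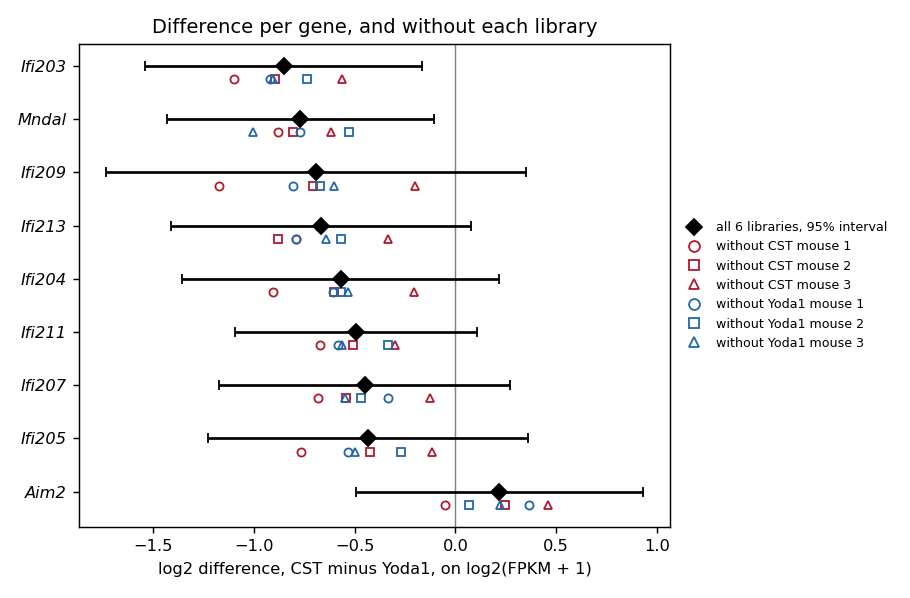
Difference between CST and Yoda1 (CST minus Yoda1, log2 of FPKM + 1, x axis) for each gene (y axis): black diamonds with the 95% interval from limma on all 6 libraries, open symbols without 1 library each. The intervals of Ifi203 and Mndal exclude 0 before adjustment, and without CST mouse 3 the differences of the other 6 Ifi200 genes lie between -0.34 and -0.11.

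The 9 genes together summed to 344, 247 and 157 FPKM in CST mice 1 to 3, against 344, 422 and 332 FPKM in Yoda1 mice 1 to 3. By this sum CST mouse 1 was level with Yoda1 mouse 1, CST mouse 2 lay below all Yoda1 mice, and CST mouse 3 was the lowest of all. The means were 250 ± 93.3 FPKM in CST and 366 ± 49.2 FPKM in Yoda1 skin (SD, n = 3 each), and the log2 difference of the sums was -0.61. CST mouse 3 was the lowest library in 8 of the 9 genes, while it was the lowest in 17.6% of all genes tested. Without CST mouse 3 the median log2 difference of the 9 genes was -0.21 and that of their sum -0.32. Without CST mouse 1, the CST library with the high mitochondrial share, the median was -0.79 and all 9 genes were lower in CST. Without both CST mouse 1 and Yoda1 mouse 3 it was -0.83, again with all 9 lower and 0 passing the adjusted threshold.

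**Figure D3:**
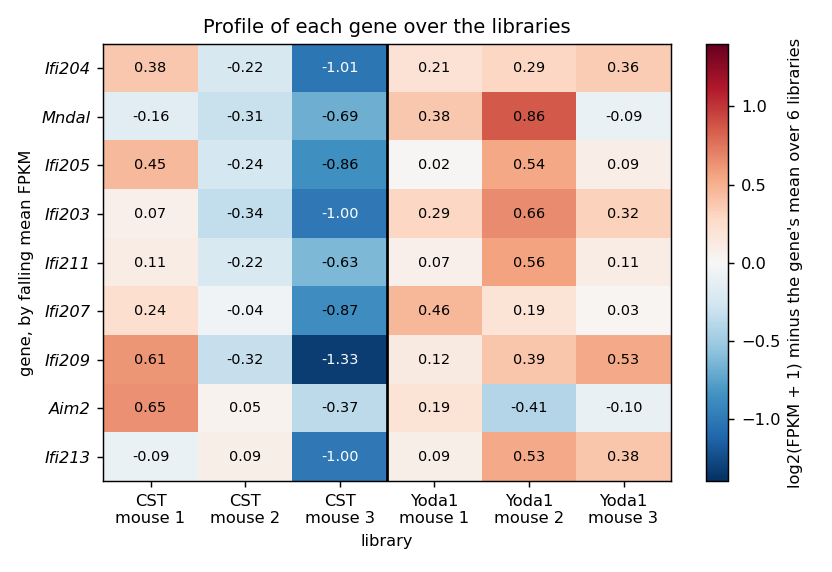
Each cell gives log2(FPKM + 1) of a gene (rows, by falling mean FPKM) in a library (columns, CST left of Yoda1), less that gene's mean over the 6 libraries. CST mouse 3 is below the mean in all 9 rows, from -1.33 for Ifi209 to -0.37 for Aim2, and Yoda1 mouse 2 is above it in every row but that of Aim2.

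The make-up of the family also differed between libraries. Ifi203 took 10.6% to 10.9% of the summed FPKM in CST libraries and 12.4% to 13.2% in Yoda1 libraries, without overlap. The ratio of Mndal to Ifi204 was 0.655, 0.901 and 1.21 in CST mice 1 to 3, against 1.08, 1.43 and 0.699 in Yoda1 mice 1 to 3. It was lowest in CST mouse 1 and Yoda1 mouse 3, the pair with the high mitochondrial shares, and did not separate the treatments. Near-identical copies limit how far single genes can be told apart. Of the distinct 50-base stretches in the GENCODE M21 transcripts of each gene, the share also present in a transcript of another gene was 72.8% for Ifi211 (44.7% shared with Ifi205), 33.7% for Ifi209, and 7.29% to 20.0% for Ifi203, Ifi204, Ifi205, Ifi207, Ifi213 and Mndal. For Aim2 it was 0.628%. The sources used here do not say how the authors' counting treated reads that match more than 1 gene, so values of single Ifi200 genes, and of Ifi211 above all, are uncertain to that extent.

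Of the neighbours in the cluster that are not among the 9 genes, Ifi202b stood out. Its protein lacks the pyrin domain and in mouse cells holds Aim2 in check. Ifi202b measured 189, 46.6 and 20.3 FPKM in CST mice 1 to 3, against 57.9, 24.7 and 128 FPKM in Yoda1 mice 1 to 3. The highest values of Ifi202b were in CST mouse 1 and Yoda1 mouse 3, 1 library of each treatment and the 2 with the high mitochondrial shares. Ifi206 ran from 1.80 to 4.32 FPKM in CST and from 4.45 to 6.75 FPKM in Yoda1 libraries, without overlap, as did 2.08% of all genes tested. Ifi214 ran from 0.0494 to 0.155 FPKM in CST and from 0.208 to 0.452 FPKM in Yoda1 libraries. It did not overlap either, but rested on only 4 to 30 reads and was under the filter. Ifi208 reached at most 0.0818 FPKM in any library. The promoters of Ifi206, Ifi208 and Ifi214 also held the interferon response element core, and that of Ifi202b did not.

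Among genes outside the family whose profile over the 6 libraries was most like the mean of the 9, by root mean square difference on the log2(FPKM + 1) scale, the nearest was Ctsc (0.10), the gene of the lysosomal protease cathepsin C. Ctsc had 262, 196 and 128 FPKM in CST mice, against 244, 274 and 210 FPKM in Yoda1 mice. The next were Rps27a (0.11), Klra3 (0.12), Slfn2 (0.13) and Vwa5a (0.14), where the median over all genes tested was 0.52. Of the 9 genes themselves, Ifi204 was nearest to their mean (0.12) and Aim2 farthest (0.45).

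The partners of these sensors were described from lists of pathway genes, with 0 genes past the adjusted threshold in either direction in every list. Of 8 partners of the AIM2 inflammasome 4 were lower and 4 higher in CST, with a median log2 difference of -0.13. Casp1, the protease that the inflammasome activates, had 17.6, 15.5 and 12.5 FPKM in CST mice, against 20.4, 18.0 and 18.0 FPKM in Yoda1 mice, and the groups did not overlap. Il1b, the cytokine gene whose product caspase-1 cuts, ran the other way, with 1046, 288 and 280 FPKM in CST mice, against 116, 42.9 and 91.5 FPKM in Yoda1 mice (log2 difference 2.498, limma unadjusted p = 0.00254, adjusted p = 0.521). Casp8, a further caspase that Aim2 can engage through ASC, had 18.9 to 25.2 FPKM in CST and 23.3 to 30.4 FPKM in Yoda1 libraries.

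Of 10 genes of the cGAS-STING branch 8 were tested, since Trex1 was listed at 0 in every library and Ifnb1, an interferon gene itself, was above 0 in CST mouse 1 only, at 0.0553 FPKM. Of the 8, 7 were lower in CST, with a median of -0.35, and 3 did so without overlap, against 2.08% of all genes tested. The first was Irf7, a transcription factor of interferon genes, at 49.97 to 104 FPKM in CST and 111 to 246 FPKM in Yoda1 libraries. The others were Zbp1, a nucleic acid sensor, at 18.8 to 25.8 FPKM in CST and 33.9 to 69.4 FPKM in Yoda1 libraries, and Samhd1, an enzyme that breaks down deoxynucleotides. Samhd1 ran from 104 to 126 FPKM in CST and from 136 to 167 FPKM in Yoda1 libraries. Sting1 itself overlapped, with 21.5, 39.0 and 22.8 FPKM in CST mice, against 46.0, 54.4 and 16.8 FPKM in Yoda1 mice. Its value in Yoda1 mouse 3 was the lowest of the 6, and the 9 family genes summed to 332 FPKM in that library. A link between Sting1 and the family was not tested.

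Of 12 genes for interferon receptors and JAK-STAT signalling 11 were lower in CST, with a median of -0.23, and 4 did not overlap, against the same 2.08%. Stat2 and Irf9, which help to carry the interferon signal to the response element, were among these 4. Stat2 had 25.8, 32.5 and 17.0 FPKM in CST mice, against 40.6, 41.7 and 44.6 FPKM in Yoda1 mice (log2 difference -0.78, limma unadjusted p = 0.0175, adjusted p = 0.767). Of 12 interferon-induced genes outside the family all 12 were lower in CST, with a median of -0.98, and 8 did not overlap, against the 2.08% of all genes tested. Their sum was 294, 431 and 297 FPKM in CST mice 1 to 3, against 523, 979 and 578 FPKM in Yoda1 mice. In CST mouse 1 this sum was as low as in CST mouse 3, while the sum of the 9 family genes there was second only to Yoda1 mouse 2. Ifit3, an interferon-induced protein gene, had 18.1, 23.0 and 18.0 FPKM in CST mice, against 42.9, 55.2 and 56.4 FPKM in Yoda1 mice. For Ifit3, CST mouse 1 and mouse 3 were thus nearly level, which did not hold for all of the 12 genes.

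Cell type markers were measured beside the family, and which cells express it in this skin was not tested. The 12 macrophage and monocyte markers summed to 1227, 1522 and 1085 FPKM in CST mice 1 to 3, against 2704, 3792 and 904 FPKM in Yoda1 mice 1 to 3. All 12 were tested, 11 were lower in CST with a median of -0.51, none was at 0, and in none were the groups without overlap. The 8 neutrophil markers summed to 11057, 1773 and 1724 FPKM in CST mice, against 1554, 683 and 4100 FPKM in Yoda1 mice. Most of each sum was S100a8 and S100a9, at 3067 and 7553 FPKM in CST mouse 1 and 1487 and 2539 FPKM in Yoda1 mouse 3. Each of the other neutrophil markers was lower in Yoda1 mouse 3 than in CST mouse 2, such as Csf3r (14.5 against 34.7 FPKM) and Trem1 (3.42 against 13.1 FPKM). CST mouse 1, where the family stood at the level of Yoda1 skin, had the highest neutrophil sum and a macrophage sum below those of Yoda1 mice 1 and 2. Of the 8 neutrophil markers 7 were tested and all 7 were higher in CST, 2 of them without overlap, against 4.52% of all genes tested. Ly6g, at a mean of 0.603 FPKM, was under the filter and was at 0 in Yoda1 mouse 1. Markers of dendritic and Langerhans cells (8 genes, 26.9 to 31.7 FPKM in CST and 10.2 to 42.7 FPKM in Yoda1 libraries) and of T and NK cells (8 genes, 13.6 to 22.9 FPKM in CST and 8.65 to 33.8 FPKM in Yoda1 libraries) summed to less and overlapped. In Yoda1 mouse 3 the macrophage sum was the lowest of the 6, and the family sum was 332 FPKM. The 6 skeletal muscle markers separated the treatments, at 10604, 5742 and 9251 FPKM in CST mice, against 92.2, 4084 and 502 FPKM in Yoda1 mice. All 6 were higher in CST without overlap, where 4.52% of all genes tested were, with a median log2 difference of 4.02, although none passed the adjusted threshold in limma. The 6 fibroblast markers were all lower in CST (median -0.58, sums of 3754 to 6121 FPKM in CST and 3616 to 11409 FPKM in Yoda1 libraries), and the groups overlapped. The part of cell composition in the differences of the 9 genes was not tested.

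**Figure D4:**
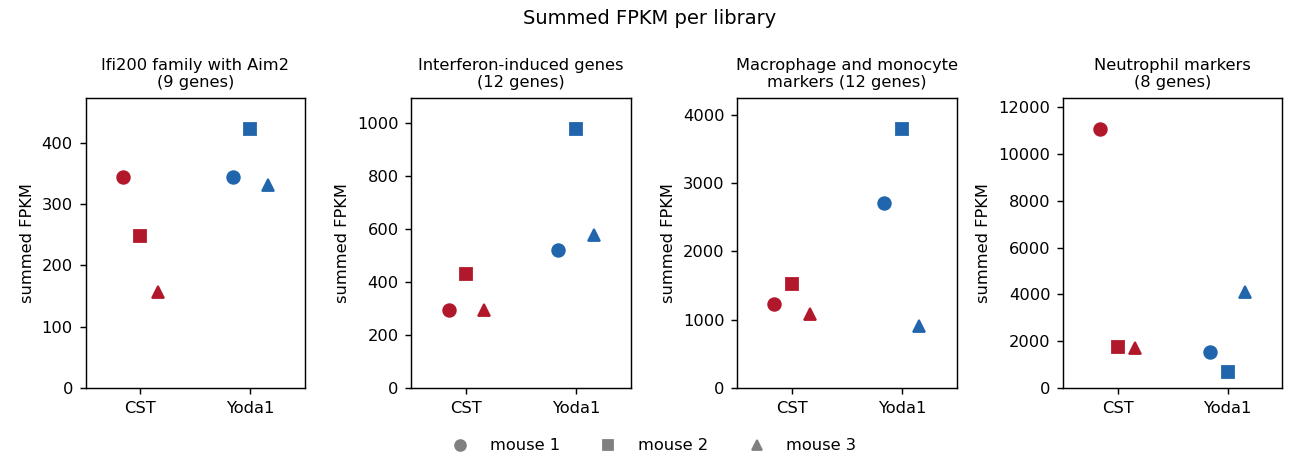
Summed FPKM per library (y axes, from 0) of the 9 genes and of lists of 12 interferon-induced genes, 12 macrophage and monocyte markers and 8 neutrophil markers, with a symbol for each mouse and CST left of Yoda1. The interferon-induced sum separates the groups (294 to 431 against 523 to 979 FPKM), whereas the other sums overlap. Most of the neutrophil sum is S100a8 and S100a9.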

How the data were processed

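The authors deposited 1 table of FPKM values for 57010 genes in 6 libraries, without counts. The builds GRCm38 and mm10 are named in the submitters' processing notes. No aligner, counter or strandedness is given in the sources used here. Of 52029 identifiers found in GENCODE M21, 2.81% had the deposited start, so positions are those of GENCODE M21. Depths and whole reads were worked out from the smallest steps between FPKM values: all 30697 genes above 0 gave whole reads within 0.0001 reads or, for high counts, 2e-08 of the count, with gene lengths up to 150000 bases tried. With lengths up to 8000 bases, 99.7% of 318 genes did so at these depths and 0% at wrong depths. No column was left without a sample.

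The test was limma 3.58.1 in R 4.3.3 on log2(FPKM + 1) with a mean-variance trend, two-sided, over the 14588 genes averaging 1 FPKM or more, and was tested on simulated data. The log2(FPKM + 1) scale understates changes of low genes. Differences are CST minus Yoda1. Intervals are per gene and unadjusted. With 3 mice against 3, the smallest two-sided exact permutation p is 0.1. The labels number the mice of each group. The p-values set the difference between the groups against the spread between mice within each group. For each gene that spread is drawn towards a trend over all genes tested. Sequences were searched with Python 3.11.15.

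The genes, the lists and the doubted libraries were chosen with earlier results of these data known. Named genes are the 9, the 3 genes of smallest p of each pathway list and the 5 genes of most similar profile; Sting1, Ifnb1, Trex1 and the genes of the cluster were added, and 1 gene that the rule names is not reported here. Other settings covered the pseudocount, filter, scaling, recovered reads, library weights, a replicate block and left-out libraries.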

Additional observations from a re-analysis of the deposited data

How the results depend on the processing

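The median log2 difference of the 9 genes was negative under all 15 other settings, from -0.83 to -0.21, and from -0.79 to -0.21 when 1 library was left out. That of the summed FPKM was negative under all 11 settings that give it, from -0.95 to -0.32, and from -0.88 to -0.32 when 1 library was left out. The 8 Ifi200 genes were lower in CST under all 15. Aim2 turned negative without CST mouse 1 (-0.050), without CST mouse 1 and Yoda1 mouse 3 (-0.047) and with library weights (-0.15), and ran from -0.050 to 0.46 when 1 library was left out; the cause was not tested. The count of genes past the threshold was 0 to 136 when 1 library was left out (8 without CST mouse 2, 136 without Yoda1 mouse 2, with 0 of the 9 genes in either) and 1348 with library weights, where Ifi203 (-0.77, limma adjusted p = 0.0343) and Mndal (-0.78, limma adjusted p = 0.0241) passed. Those weights ran from 0.193 to 12.8 and their estimation stopped before it converged. Under none of the other settings did either gene pass, and over all 15 the adjusted p ran from 0.0343 to 1.000 for Ifi203 and from 0.0241 to 1.000 for Mndal. Pseudocount, filter, scaling and recovered reads changed no call. The labels number the mice but state no pairing. Deviations of same-numbered mice correlated at -0.08, 0.21 and -0.20 across genes, and with the replicate block 0 genes passed. With 3 mice a group, these values cannot settle whether mice of the same number shared a day or batch. At 3 mice a group, the intervals of 7 of the 9 genes include 0, so differences of the size seen there could not be told from 0.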
